A study of Mus musculus with 4 samples.

Results

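The genes described here are 36 genes that make, sense, move and export cholesterol in the liver: the enzymes of the mevalonate and sterol pathway, the machinery that controls the transcription factor SREBP2, proteins of sterol transport, esterification and efflux, and the apolipoproteins with their assembly protein. They were chosen by name, with earlier results of these data known, and looked for on the array through the RefSeq accession of its probes. A probe matched 35 of the 36 genes, and all 35 were tested among the 25092 genes that passed the filter on dim probes. Idi1, the isomerase of isopentenyl diphosphate, had no probe matched in this way and is not analysed here.

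Cells build cholesterol from acetyl-CoA through mevalonate, farnesyl diphosphate and squalene, and lanosterol is then trimmed to cholesterol. When sterols in the endoplasmic reticulum run low, SCAP escorts SREBP2 to the Golgi, where it is cut and released to switch on the genes of synthesis and uptake. When sterols are plentiful, INSIG proteins hold SCAP back, and oxysterols activate the LXR receptors, which drive efflux. The liver also loads triglyceride and cholesteryl ester onto apolipoprotein B and secretes the particles as very low density lipoprotein.

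The study lowered Cux2, a homeobox transcription factor, by siRNA in female mouse liver. Its labels give the purpose as finding expression differences that follow the knockdown. Liver RNA of 8 wk old female CD-1 mice was pooled and hybridised to 4 Agilent 2-colour arrays, each with 1 Cux2 siRNA pool and 1 pool of mice given non-specific siRNA. CD-1 is an outbred stock. The Cux2 siRNA groups were killed 5 days after treatment (pools of 3 mice in replicate 1 and 2 mice in replicate 2) or 8 days after it (2 mice in each pool). The controls were 13 mice in 2 pools of 6 or 7 by the series text, while the array labels give 6 mice in each. The labels do not say which control pool each array carried or when the controls were killed. The series text names 1 group of control mice for both days, so arrays shared control pools, and the comparisons of the 2 days may not be independent. Replicate 1 of each day carried the Cux2 siRNA pool in Alexa 647 and replicate 2 carried it in Alexa 555. Values for a day are given for replicate 1 first and replicate 2 second.

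Each value below is the log2 ratio of Cux2 siRNA over non-specific siRNA after background correction and loess normalization within the array, or the normalized spot signal of a pool in arbitrary units. The spot signals were also quantile-normalized between arrays on their mean intensity, and comparisons of readings across arrays depend on that step. The arrays were fitted together with limma, and a gene was taken to have risen or fallen when its p-value, adjusted by Benjamini-Hochberg over all 25092 genes, was under 0.05. The mean over both days uses all 4 arrays, and so few arrays limit the precision. The fit took the 4 arrays as independent. Since arrays shared control pools, the p-values over both days may be too small. For the same reason the 4 non-specific siRNA readings of a gene are not 4 independent controls. Whether readings overlap describes the values behind a call and is no further test. A p-value here reflects differences among pools and not among single mice. In RNA of a whole tissue, fewer cells of a type and less RNA per cell cannot be told apart.

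The targeted gene was lower on every array. Cux2 ratios were -1.91 and -1.70 on the day 5 arrays and -1.07 and -1.20 on the day 8 arrays, and its spots read 283 and 226 at day 5 and 528 and 358 at day 8 in the Cux2 siRNA pools, against 1066 and 733 at day 5 and 1108 and 820.2 at day 8 in the non-specific siRNA pools. The fall averaged -1.81 (SE 0.086, adjusted p = 0.00298) for day 5 and -1.13 (SE 0.086, adjusted p = 0.00700) for day 8. Under median centring neither day passed (adjusted p = 0.129 for day 5 and 0.277 for day 8), and without day 8 replicate 2 the day 8 value did not (0.0651). Between 71.1% and 74.6% of spots were well above background in each channel, and no spot was saturated. All 9 hepatocyte markers on the array, of 12 listed, were well above background in all 8 channel readings. Their summed signal was 1018750 to 1332210 in Cux2 siRNA pools and 889311 to 1419300 in non-specific siRNA pools, with Hnf4a at 0.37 (adjusted p = 0.0190) and Ttr at -0.27 (adjusted p = 0.0173). On the replicate 1 arrays the Cux2 siRNA pool had the higher sum, 1332210 against 1004090 at day 5 and 1319690 against 889311 at day 8. On the replicate 2 arrays it had the lower one, 1018750 against 1419300 at day 5 and 1093020 against 1412970 at day 8.

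Markers of other cells were read too. Those of macrophages were lower in the Cux2 siRNA pools, and those of pancreas and intestine differed between arrays. Of 11 Kupffer cell and macrophage markers tested, of 12 listed, 8 fell over both days, 72.7% against 16.3% of all genes. The median was -0.59, with Marco lowest at -2.84. The summed signal of these markers was 43098 to 68994 in Cux2 siRNA pools and 83348 to 91247 in non-specific siRNA pools, with no overlap. Of 11 exocrine pancreas markers tested, of 12 listed, 5 fell (median -2.60), 45.5% against 16.3% of all genes. The lipase Pnlip led them, with ratios of -3.83 and -5.57 on the day 5 arrays and 0.50 and -4.98 on the day 8 arrays. The summed signal of the 11 markers was 12342 to 48648 in Cux2 siRNA pools and 31405 to 80940 in non-specific siRNA pools. The day 8 replicate 1 array stood apart, with the Cux2 siRNA pool the higher one. On the non-specific siRNA side the pancreas sum was 31405 and 31699 on the replicate 1 arrays and 76185 and 80940 on the replicate 2 arrays. Of 10 intestinal epithelium markers, 7 were on the array and Cdx1, Cdx2, Krt20 and Cdh17 were below background. The other 3 were tested and Vil1 rose (0.53), 33.3% called against 31.1% of all genes. The summed signal of the 3 was 24595 to 42347 in Cux2 siRNA pools and 26653 to 35104 in non-specific siRNA pools. Most of it came from Fabp2. Without Fabp2 the other 2 summed to 1355 to 2593 in Cux2 siRNA pools and 1260 to 1997 in non-specific siRNA pools. The part of these cells in the results below was not tested.

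Over both days 10 of the 35 genes passed, 28.6% of those tested. Among all genes 31.1% passed in either direction, 14.8% by rising and 16.3% by falling, so in this fit, which has no term for the replicate number, the share of cholesterol genes that passed was near the background. Pmvk, Mvd, Sqle, Lss and Stard4 rose, and Scap, Insig2, Soat2, Apob and Mttp fell. The 4 risers other than Stard4 are enzymes of synthesis, and the 5 that fell are regulators, an esterifying enzyme and the proteins of lipoprotein assembly. Genes of the same roles did not all share these directions. Means over both days were negative for 2 of the 5 mevalonate enzymes and 2 of the 10 squalene and sterol enzymes. They were positive for 2 of the 4 genes of SREBP2 control and 1 of the 6 apolipoprotein and assembly genes. The median log2 ratio over the 35 genes was 0.0046, against 0.0032 over all genes. The log2 ratios of 12 genes were positive on all 4 arrays and those of 9 were negative on all 4. That made 60% with 1 direction throughout, against 52.4% of all genes tested. Under median centring of each array in place of loess none of the 10 genes passed, and 269 genes of the whole array did (87 rose, 182 fell, against 3706 and 4090 after loess). With the scanner's processed signals 6 of the 35 passed, 2 by rising and 4 by falling. That was 17.1%, against 26.5% of all genes.

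**Figure D1:**
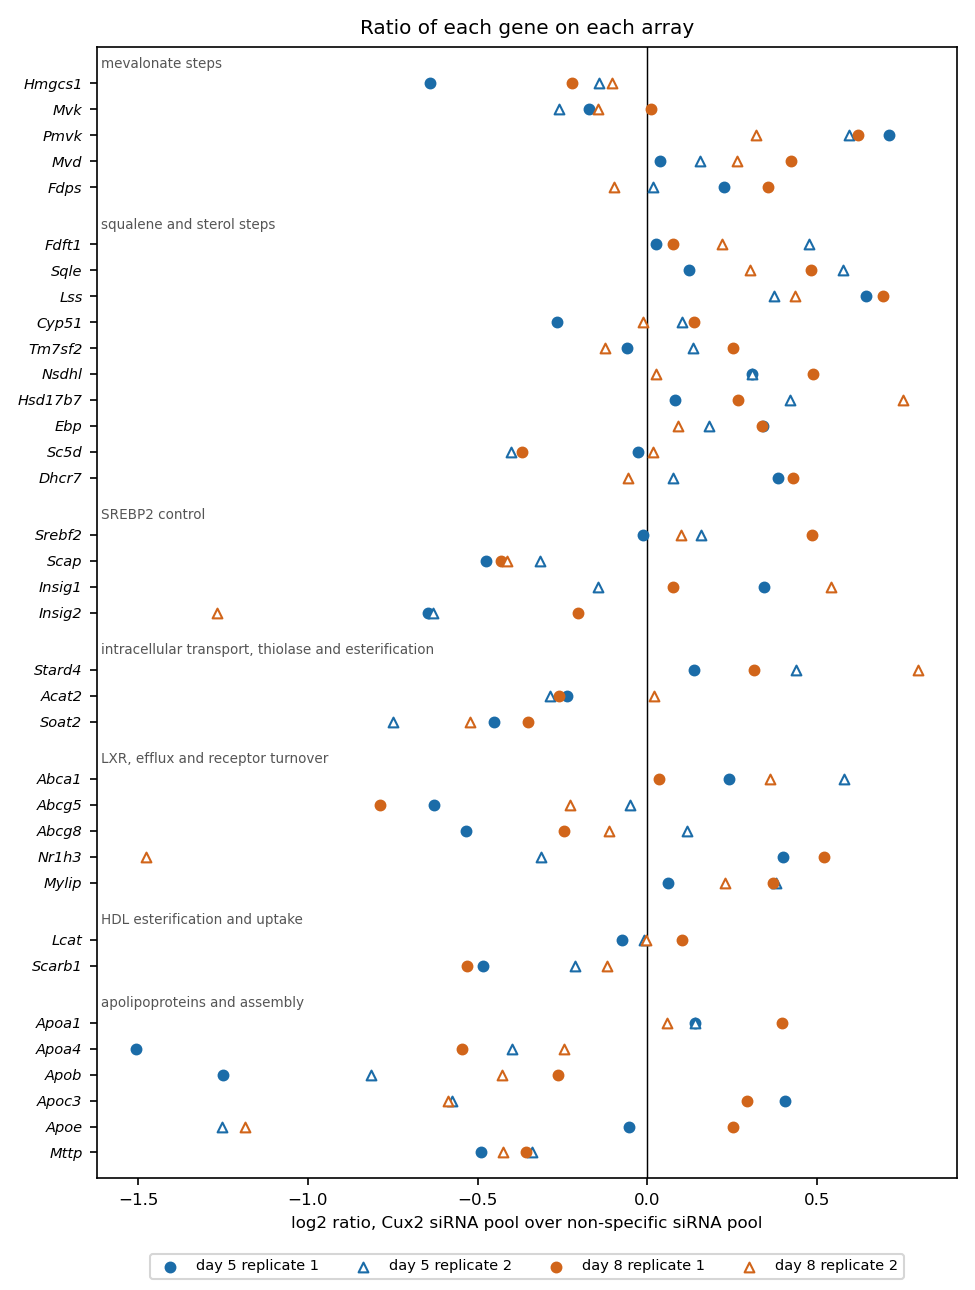
Log2 ratio of Cux2 siRNA over non-specific siRNA for the 35 tested genes on each of the 4 arrays, grouped by role, with day by colour and replicate by symbol. Pmvk and Lss lie right of 0 on every array, Scap, Soat2, Apob and Mttp left of it, and the replicates of Nr1h3, Apoc3 and Apoe lie far apart.

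At day 5 alone 6 of the 35 passed, 17.1% against 16.8% of all genes. Pmvk and Lss rose, where 7.38% of all genes did, and Scap, Soat2, Apob and Mttp fell, where 9.43% did. At day 8 alone 4 passed, 11.4% against 14.3% of all genes: Pmvk and Lss rose against a background of 6.27%, and Scap and Mttp fell against one of 8.05%. The calls of a single day changed when any 1 array was left out. Without day 5 replicate 1 none of the 6 day 5 calls remained and without day 5 replicate 2 only Apob did, and none of the 4 day 8 calls remained when either day 8 array was left out. Of the 6 day 5 calls, Scap and Mttp were lost without either day 8 array, and of the 4 day 8 calls only Lss remained without either day 5 array. With the scanner's processed signals Apob alone passed at day 5 and none of the 35 did at day 8. Of all genes 8.03% passed at day 5 and 5.88% at day 8 with those signals.

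**Figure D2:**
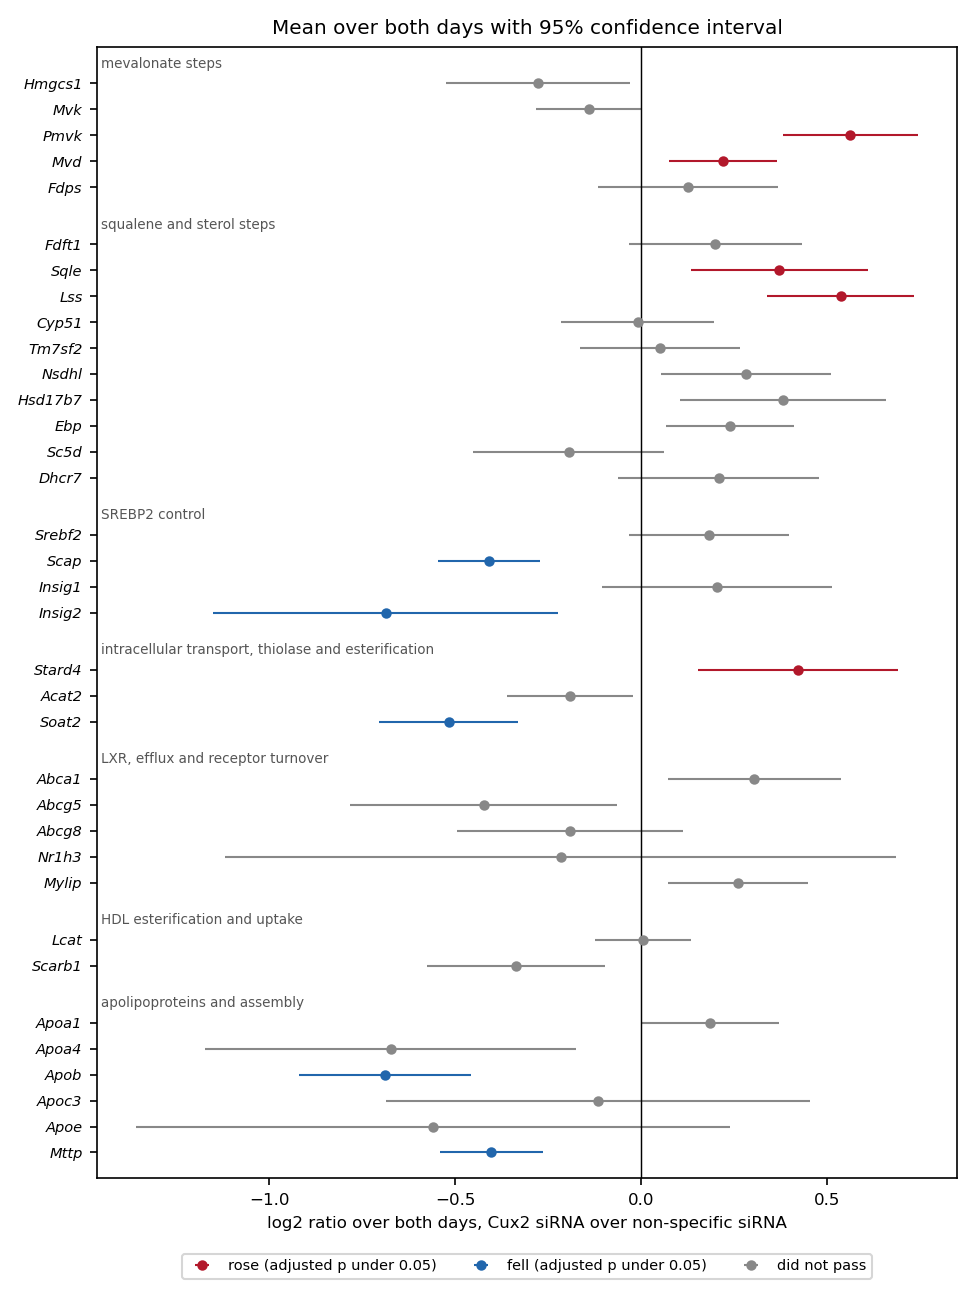
Mean log2 ratio over both days with its 95% confidence interval from limma for the 35 tested genes, grouped by role. The 5 genes that rose are red, the 5 that fell are blue and the 25 that did not pass are grey.

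Of the 5 mevalonate enzymes tested, the kinase Pmvk and the decarboxylase Mvd rose over both days, and the earlier enzymes Hmgcs1 and Mvk had negative means. With 40% of the 5 called, against 31.1% of all genes, the group's median was 0.13. Pmvk adds the second phosphate to mevalonate. Pmvk read 20244 and 17682 at day 5 and 19801 and 15580.4 at day 8 in the Cux2 siRNA pools, against 12346 and 11704 at day 5 and 12861 and 12484 at day 8 in the non-specific siRNA pools. All 4 Cux2 siRNA readings of Pmvk were above all 4 non-specific siRNA readings. On the log2 scale the ratios were 0.71 and 0.60 on the day 5 arrays and 0.62 and 0.32 on the day 8 arrays, lowest on the day 8 replicate 2 array. The rise was 1.48-fold over both days (0.56 on the log2 scale, SE 0.070, adjusted p = 0.00645), and each day passed alone, with 0.65 for day 5 (adjusted p = 0.0194) and 0.47 for day 8 (adjusted p = 0.0434). Its other probe averaged 0.48 over the arrays.

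Mvd decarboxylates mevalonate diphosphate to isopentenyl diphosphate, the first building block of sterols. Mvd read 757 and 718 at day 5 and 1098 and 824 at day 8 in the Cux2 siRNA pools, against 738 and 645 at day 5 and 818 and 685 at day 8 in the non-specific siRNA pools. The pools' readings overlapped between arrays, although the Cux2 siRNA pool was the higher one on each array. The log2 ratios of Mvd were 0.036 and 0.15 on the day 5 arrays and 0.42 and 0.27 on the day 8 arrays, with both day 8 values above both day 5 values. Over both days the rise was 1.16-fold (0.22 on the log2 scale, SE 0.056, adjusted p = 0.0416), the smallest of the 10 called. The call was lost when any 1 of the 4 arrays was left out.

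Hmgcs1, which condenses acetoacetyl-CoA to HMG-CoA at the start of the pathway, had negative log2 ratios on all 4 arrays. They were -0.64 and -0.14 on the day 5 arrays and -0.22 and -0.10 on the day 8 arrays, lowest on the day 5 replicate 1 array, and their mean was -0.28 (SE 0.095, adjusted p = 0.0886). The call turned to a fall without day 5 replicate 2, at -0.40 with an adjusted p of 0.0384. Mvk, the first kinase, had ratios of -0.17 and -0.26 on the day 5 arrays and 0.011 and -0.15 on the day 8 arrays, a mean of -0.14 (SE 0.054, adjusted p = 0.116). Fdps, which makes farnesyl diphosphate, averaged 0.13 (SE 0.093, adjusted p = 0.372) with ratios of 0.23 and 0.016 on the day 5 arrays and 0.36 and -0.10 on the day 8 arrays, positive on 3 arrays.

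The first 250 bases before each annotated start and the 50 bases after it were read from RefSeq's promoter table (GRCm38.p6), which held 29 of the 36 genes. It held Idi1 too, but not the called enzyme Sqle, nor Fdps and Fdft1. The box CCAAT, the sequence that the factor NF-Y binds beside SREBP at sterol genes, was searched on both strands. It was present for 13 of the 13 mevalonate, squalene and sterol genes in the table and for none of the 5 apolipoprotein and assembly genes, against 41.1% of all 27025 genes of the table. A gene with several promoters counted when any held the box. The sterol regulatory element TCACNCCAC was found in 1 of the 29, Hmgcs1, against 1.44% of all genes. The SREBP box TCANNTGA was found for Insig2 alone, against 9.56% of all genes, and the CUX core ATCGAT for Srebf2 alone, against 1.02%. Both strands were searched for each, and in these genes no match overlapped a match of another motif. A match describes letters and not a bound site. The promoters of the called enzymes Pmvk, Mvd and Lss are printed with the one of Hmgcs1, whose mean ratio lay on the other side of 0, 5′ to 3′ on the gene's strand. Capitals mark CCAAT, read as ATTGG where it lies on the other strand, and in Hmgcs1 also TCACCCCAC.
Pmvk, chr3:89454291-89454590, plus strand: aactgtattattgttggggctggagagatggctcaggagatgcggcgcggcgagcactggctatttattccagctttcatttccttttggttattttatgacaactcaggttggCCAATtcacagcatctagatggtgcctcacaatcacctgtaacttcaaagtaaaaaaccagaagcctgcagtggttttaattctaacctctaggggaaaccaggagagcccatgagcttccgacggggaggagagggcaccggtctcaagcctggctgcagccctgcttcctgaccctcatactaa
Mvd, chr8:122443373-122443672, minus strand: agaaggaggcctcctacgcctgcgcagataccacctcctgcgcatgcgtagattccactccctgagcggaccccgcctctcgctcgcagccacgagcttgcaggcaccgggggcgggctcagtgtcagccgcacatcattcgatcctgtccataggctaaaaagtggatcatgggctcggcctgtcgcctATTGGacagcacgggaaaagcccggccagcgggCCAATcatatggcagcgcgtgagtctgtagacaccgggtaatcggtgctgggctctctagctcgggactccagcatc
Lss, chr10:76531355-76531654, plus strand: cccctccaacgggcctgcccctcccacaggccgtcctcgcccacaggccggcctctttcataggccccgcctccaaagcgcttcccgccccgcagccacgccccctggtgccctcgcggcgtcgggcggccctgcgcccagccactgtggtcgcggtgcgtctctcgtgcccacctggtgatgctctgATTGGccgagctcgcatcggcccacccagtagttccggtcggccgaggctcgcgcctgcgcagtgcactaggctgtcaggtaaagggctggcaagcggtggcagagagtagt
Hmgcs1, chr13:119690101-119690400, plus strand: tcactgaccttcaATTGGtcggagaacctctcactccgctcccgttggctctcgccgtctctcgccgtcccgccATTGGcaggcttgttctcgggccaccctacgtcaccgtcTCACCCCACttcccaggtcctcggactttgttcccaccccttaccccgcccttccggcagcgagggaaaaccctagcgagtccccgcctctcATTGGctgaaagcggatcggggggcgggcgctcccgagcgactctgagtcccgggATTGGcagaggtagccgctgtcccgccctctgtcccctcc
Hmgcs1 held 4 CCAAT boxes and the sterol regulatory element with its first base at -137, counted from 0 at the annotated start, Mvd held 2 boxes, and Pmvk and Lss held 1 each. The table gives Pmvk a further start, whose promoter held none.

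The 10 squalene and sterol enzymes had a median log2 ratio of 0.22 over both days, and 8 of the 10 means were positive, against 12764 of all 25092 genes. Lss and Sqle rose and none fell, 20% called against 31.1% of all genes. Lss folds squalene epoxide into lanosterol, the first sterol. Lss read 2474 and 2009 at day 5 and 2577 and 2351 at day 8 in the Cux2 siRNA pools, against 1582 and 1549.9 at day 5 and 1593 and 1739 at day 8 in the non-specific siRNA pools. Every Cux2 siRNA reading of Lss lay above every non-specific siRNA reading. Array by array the log2 ratios came to 0.65 and 0.37 on the day 5 arrays and 0.69 and 0.43 on the day 8 arrays, higher on the replicate 1 array of each day. The rise was 1.45-fold over both days (0.54 on the log2 scale, SE 0.076, adjusted p = 0.00900), with 0.51 for day 5 (adjusted p = 0.0409) and 0.56 for day 8 (adjusted p = 0.0356).

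Sqle, squalene epoxidase, makes the substrate of Lss and is a rate-limiting enzyme of the later pathway. Sqle read 25073 and 34155 at day 5 and 34013 and 30151 at day 8 in the Cux2 siRNA pools, against 23022 and 22899 at day 5 and 24328 and 24453 at day 8 in the non-specific siRNA pools. The Cux2 siRNA pool of the day 5 replicate 1 array was only slightly above the non-specific siRNA readings, and the other 3 were well above them. The 4 log2 ratios were 0.12 and 0.58 on the day 5 arrays and 0.48 and 0.30 on the day 8 arrays. Over both days Sqle rose 1.29-fold (0.37 on the log2 scale, SE 0.091, adjusted p = 0.0385). Neither day passed alone, and leaving out day 5 replicate 2 (adjusted p = 0.107), day 8 replicate 1 (0.127) or day 8 replicate 2 (0.0846) ended the call.

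Among the enzymes that did not pass, Hsd17b7, Nsdhl, Ebp and Fdft1 had positive log2 ratios on all 4 arrays. Hsd17b7, a ketone reductase that acts while methyl groups are removed from the sterol ring, had ratios of 0.082 and 0.42 on the day 5 arrays and 0.27 and 0.75 on the day 8 arrays and a mean of 0.38 (SE 0.11, adjusted p = 0.0532). Nsdhl, the dehydrogenase of the same demethylation, averaged 0.28 (SE 0.088, adjusted p = 0.0700), with a ratio near 0 on the day 8 replicate 2 array. Ebp, the sterol isomerase, averaged 0.24 (SE 0.066, adjusted p = 0.0519). These adjusted p-values lay close to the threshold: Hsd17b7 passed without day 8 replicate 1 (0.0344), and Nsdhl passed without day 8 replicate 2 (0.0307). Fdft1, squalene synthase, had ratios of 0.026 and 0.48 on the day 5 arrays and 0.077 and 0.22 on the day 8 arrays, and Dhcr7, the reductase of the last step of one branch, had ratios of 0.39 and 0.075 on the day 5 arrays and 0.43 and -0.057 on the day 8 arrays. Their means were 0.20 (SE 0.089, adjusted p = 0.161) and 0.21 (SE 0.10, adjusted p = 0.201). The sterol reductase Tm7sf2 averaged 0.051 with values on both sides of 0, and the sterol desaturase Sc5d averaged -0.20.

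Cyp51, lanosterol demethylase, was the only 1 of the 16 genes with several kept probes whose probes differed in sign. The brightest of its 3 probes, which stands for the gene here, had log2 ratios of -0.27 and 0.10 on the day 5 arrays and 0.14 and -0.013 on the day 8 arrays and a mean of -0.0093 (SE 0.079, adjusted p = 0.946). A dimmer probe had ratios of 0.03 and 1.05 at day 5 and 1.04 and 1.03 at day 8, and the third had -0.48 and -0.09 at day 5 and -0.11 and 0.03 at day 8. All 3 carry the same RefSeq accession and were well above background in every reading. With all probes of a gene averaged, Cyp51 still did not pass.

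Of the 4 genes that control SREBP2, Scap and Insig2 fell over both days, and Srebf2 and Insig1 had positive means. The share called was 50% of the 4, against 31.1% of all genes. Scap encodes the sterol sensor that escorts SREBP2 to the Golgi. Scap read 15730.2 and 14253 at day 5 and 14280.5 and 14006 at day 8 in the Cux2 siRNA pools, against 21869 and 17729 at day 5 and 19242 and 18659 at day 8 in the non-specific siRNA pools. All 4 Cux2 siRNA readings of Scap were below all 4 non-specific siRNA readings. On the log2 scale the ratios were -0.48 and -0.31 on the day 5 arrays and -0.43 and -0.41 on the day 8 arrays, which with Mttp was the narrowest spread among the 10 called genes. The fall was 1.33-fold over both days (-0.41 on the log2 scale, SE 0.053, adjusted p = 0.00705), with -0.40 for day 5 (adjusted p = 0.0317) and -0.42 for day 8 (adjusted p = 0.0302).

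Insig2 encodes an endoplasmic reticulum protein that retains SCAP and is abundant in liver. Insig2 read 22847 and 22418 at day 5 and 29879.7 and 15895 at day 8 in the Cux2 siRNA pools, against 35745 and 34755 at day 5 and 34437 and 38282 at day 8 in the non-specific siRNA pools. The groups did not overlap, but the day 8 arrays differed widely, with the highest Cux2 siRNA reading in replicate 1 and the lowest in replicate 2. The log2 ratios of Insig2 were -0.65 and -0.63 on the day 5 arrays and -0.20 and -1.27 on the day 8 arrays. Over both days Insig2 fell 1.61-fold (-0.69 on the log2 scale, SE 0.18, adjusted p = 0.0440). The call was lost without either day 5 array (adjusted p = 0.121 without replicate 1 and 0.127 without replicate 2).

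Srebf2, which encodes SREBP2 itself, had log2 ratios of -0.013 and 0.16 on the day 5 arrays and 0.49 and 0.10 on the day 8 arrays, near 0 on the day 5 replicate 1 array and highest on the day 8 replicate 1 array. Its mean was 0.18 (SE 0.082, adjusted p = 0.165). Insig1, the partner of Insig2 that SREBP2 switches on, had ratios of 0.34 and -0.15 on the day 5 arrays and 0.077 and 0.54 on the day 8 arrays and a mean of 0.20 (SE 0.12, adjusted p = 0.263). The replicates of Insig1 lay on both sides of 0 at day 5.

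Stard4 rose and Soat2 fell over both days, and the thiolase Acat2 did not pass. The share called was 66.7% of the 3, against 31.1% of all genes. Stard4 is a soluble carrier that moves cholesterol between membranes. Stard4 read 11518 and 13155 at day 5 and 13836 and 17975 at day 8 in the Cux2 siRNA pools, against 10473 and 9700.3 at day 5 and 11132 and 10339 at day 8 in the non-specific siRNA pools. Every Cux2 siRNA reading of Stard4 lay above every non-specific siRNA reading, by little on the day 5 replicate 1 array and by most on the day 8 replicate 2 array. Array by array the log2 ratios came to 0.14 and 0.44 on the day 5 arrays and 0.31 and 0.80 on the day 8 arrays. Stard4 rose 1.34-fold over both days (0.42 on the log2 scale, SE 0.10, adjusted p = 0.0378). Leaving out day 5 replicate 1 (adjusted p = 0.0624), day 5 replicate 2 (0.140) or day 8 replicate 2 (0.103) ended the call. The other 2 probes of Stard4 were dimmer, with the lowest mean at 0.24.

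Soat2 encodes the acyltransferase with which hepatocytes esterify cholesterol for storage and for lipoproteins. Soat2 read 686 and 646 at day 5 and 794 and 834 at day 8 in the Cux2 siRNA pools, against 938 and 1085 at day 5 and 1012 and 1198 at day 8 in the non-specific siRNA pools. The 4 Cux2 siRNA readings were all below the 4 non-specific siRNA readings. The 4 log2 ratios were -0.45 and -0.75 on the day 5 arrays and -0.35 and -0.52 on the day 8 arrays, lower on the replicate 2 array of each day. Soat2 fell 1.43-fold over both days (-0.52 on the log2 scale, SE 0.072, adjusted p = 0.00853) and also passed for day 5 (-0.60, adjusted p = 0.0248), whereas its day 8 mean of -0.44 did not (adjusted p = 0.0558). Acat2, the cytosolic thiolase that feeds acetoacetyl-CoA to Hmgcs1 and is not the esterifying enzyme of the same older name, had ratios of -0.24 and -0.29 on the day 5 arrays and -0.26 and 0.020 on the day 8 arrays and a mean of -0.19 (SE 0.065, adjusted p = 0.0878).

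**Figure D3:**
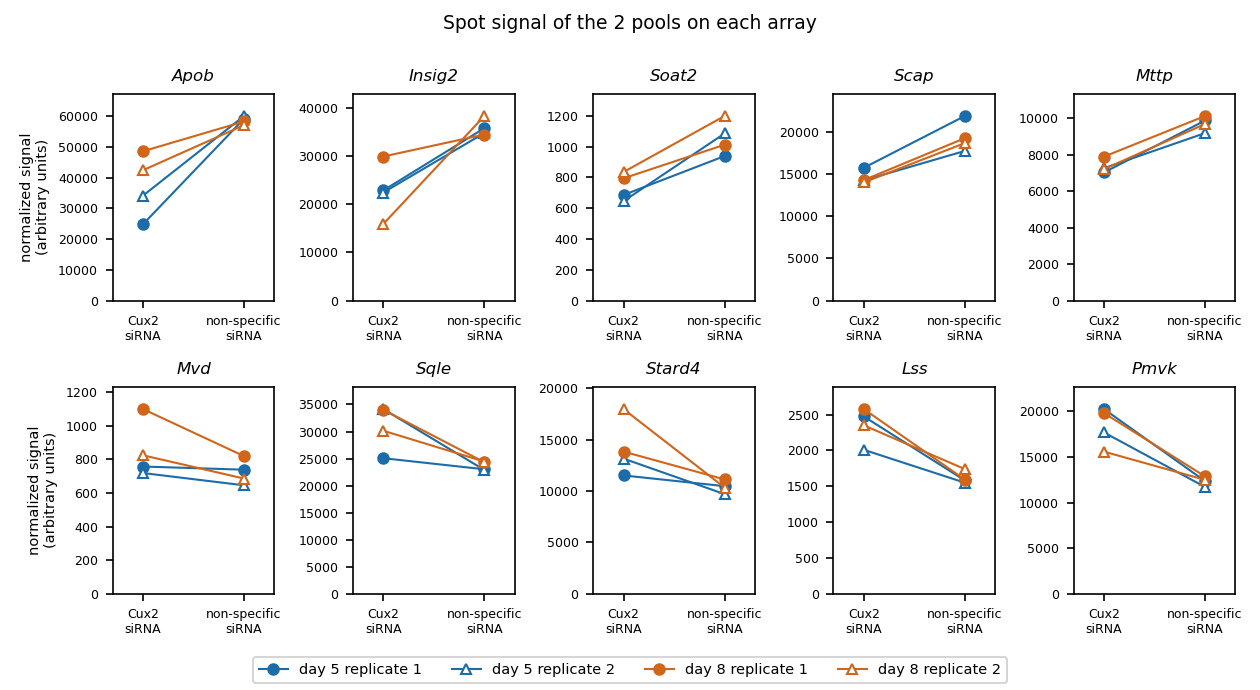
Normalized signal (arbitrary units, axes from 0) of the Cux2 siRNA pool on the left and the non-specific siRNA pool on the right of each array for the 10 genes that passed over both days, 1 line per array. Lines of Apob, Insig2, Soat2, Scap and Mttp climb to the right on all 4 arrays, and those of Mvd, Sqle, Stard4, Lss and Pmvk descend.

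None of the 5 genes of LXR, efflux and receptor turnover passed in limma over both days, on day 5 or on day 8. An unadjusted limma p under 0.05 over both days was met by 3 of the 5, against 10790 of all 25092 genes. Abca1, which hands cholesterol to apolipoprotein A-I, had log2 ratios of 0.24 and 0.58 on the day 5 arrays and 0.033 and 0.36 on the day 8 arrays, positive on all 4 arrays, with a mean of 0.30 (SE 0.089, adjusted p = 0.0606). Mylip, a ubiquitin ligase that marks lipoprotein receptors for breakdown, was positive on all 4 arrays too, with ratios of 0.062 and 0.38 on the day 5 arrays and 0.37 and 0.23 on the day 8 arrays and a mean of 0.26 (SE 0.073, adjusted p = 0.0532). Abcg5 and Abcg8 pair to pump sterols into bile and had negative means. All 4 are textbook LXR targets. Abcg5 had ratios of -0.63 and -0.052 on the day 5 arrays and -0.79 and -0.23 on the day 8 arrays, lower on the replicate 1 array of each day, and a mean of -0.42 (SE 0.14, adjusted p = 0.0786). Abcg8 had ratios of -0.53 and 0.12 on the day 5 arrays and -0.24 and -0.11 on the day 8 arrays on its brightest probe, with a mean of -0.19 (SE 0.12, adjusted p = 0.282). Its dimmer probe read lower on every array, at -0.68 and -0.40 at day 5 and -0.59 and -0.58 at day 8. With all probes of a gene averaged Abcg8 fell, at -0.38 with an adjusted p of 0.0340.

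Nr1h3, which encodes LXR alpha, had log2 ratios of 0.40 and -0.31 on the day 5 arrays and 0.52 and -1.48 on the day 8 arrays, positive on both replicate 1 arrays and negative on both replicate 2 arrays. Nr1h3 read 2196 and 2539 at day 5 and 2617 and 521 at day 8 in the Cux2 siRNA pools, against 1663 and 3155 at day 5 and 1825 and 1450.3 at day 8 in the non-specific siRNA pools. The day 8 replicate 2 array held the lowest Cux2 siRNA reading. The mean over both days was -0.22 (SE 0.35, adjusted p = 0.691), with a 95% interval of -1.12 to 0.69. Without day 8 replicate 1 the mean was -0.72 with an adjusted p of 0.0489.

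The 2 genes of HDL esterification and uptake did not pass in limma. At an unadjusted limma p under 0.05 over both days there was 1 of the 2, against 10790 of all 25092 genes. Lcat, the plasma enzyme that esterifies HDL cholesterol, lay close to 0 on all 4 arrays, with log2 ratios of -0.073 and -0.0090 on the day 5 arrays and 0.10 and -0.0022 on the day 8 arrays and a 95% interval of -0.13 to 0.13 over both days. Scarb1, the HDL receptor of hepatocytes, was negative on all 4, with ratios of -0.48 and -0.21 on the day 5 arrays and -0.53 and -0.12 on the day 8 arrays and a mean of -0.34 (SE 0.092, adjusted p = 0.0507). Scarb1 passed without day 8 replicate 2, at -0.44 with an adjusted p of 0.0428.

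Among the 6 apolipoprotein and assembly genes, Apob and Mttp fell over both days and none rose, and the group's median was -0.48. That was 33.3% by falling, against 16.3% of all genes. Apob encodes the structural protein of very low density lipoprotein. Apob read 24876 and 34188 at day 5 and 48620.0 and 42457 at day 8 in the Cux2 siRNA pools, against 59216 and 60101 at day 5 and 58316 and 57132 at day 8 in the non-specific siRNA pools. Every Cux2 siRNA reading of Apob was below every non-specific siRNA reading, and the day 5 readings were the lowest. On the log2 scale the ratios were -1.25 and -0.81 on the day 5 arrays and -0.26 and -0.43 on the day 8 arrays. The fall was 1.61-fold over both days (-0.69 on the log2 scale, SE 0.088, adjusted p = 0.00699) and 2.05-fold at day 5 (-1.03, adjusted p = 0.0130). At day 8 the mean was -0.35 (adjusted p = 0.143). The means of its 3 probes over the arrays lay between -0.69 and -0.62.

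Mttp encodes the microsomal transfer protein that loads lipid onto apolipoprotein B. Mttp read 7019 and 7254 at day 5 and 7884 and 7199 at day 8 in the Cux2 siRNA pools, against 9861 and 9173 at day 5 and 10109 and 9672 at day 8 in the non-specific siRNA pools. The groups did not overlap, and the 4 Cux2 siRNA readings lay close together. The log2 ratios of Mttp were -0.49 and -0.34 on the day 5 arrays and -0.36 and -0.43 on the day 8 arrays. Mttp fell 1.32-fold over both days (-0.40 on the log2 scale, SE 0.053, adjusted p = 0.00744), and on each day alone, with -0.41 for day 5 (adjusted p = 0.0288) and -0.39 for day 8 (adjusted p = 0.0359). The promoters of Apob and Mttp, which act together in particle assembly and fell together, are shown from the same RefSeq table beside those of the enzymes above. They held none of the letters searched and so carry no capitals.
Apob, chr12:7977427-7977726, plus strand: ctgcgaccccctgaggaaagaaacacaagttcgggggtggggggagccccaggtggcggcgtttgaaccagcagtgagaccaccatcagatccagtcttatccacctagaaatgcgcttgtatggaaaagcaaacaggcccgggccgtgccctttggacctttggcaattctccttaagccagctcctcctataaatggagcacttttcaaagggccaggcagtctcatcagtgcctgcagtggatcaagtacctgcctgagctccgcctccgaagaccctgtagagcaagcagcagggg
Mttp, chr3:138143369-138143668, minus strand: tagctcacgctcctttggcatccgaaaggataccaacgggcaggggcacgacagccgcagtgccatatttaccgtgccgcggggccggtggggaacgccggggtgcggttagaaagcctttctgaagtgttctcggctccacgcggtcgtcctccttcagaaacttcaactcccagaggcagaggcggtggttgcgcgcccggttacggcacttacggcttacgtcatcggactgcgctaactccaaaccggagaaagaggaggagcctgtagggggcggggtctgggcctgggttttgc
Both are given on the gene's own strand, 5′ to 3′.

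Apoa4, an apolipoprotein of triglyceride-rich particles and HDL, had log2 ratios of -1.51 and -0.40 on the day 5 arrays and -0.55 and -0.24 on the day 8 arrays, negative on all 4 arrays and lowest on the day 5 replicate 1 array. Its mean was -0.67 (SE 0.19, adjusted p = 0.0555), and without day 5 replicate 2 it passed, at -0.95 with an adjusted p of 0.0124. Apoa1, the main protein of HDL, was positive on all 4 arrays with ratios of 0.14 and 0.14 on the day 5 arrays and 0.40 and 0.059 on the day 8 arrays and a mean of 0.18 (SE 0.071, adjusted p = 0.118). Apoe, a ligand for remnant uptake, had ratios of -0.055 and -1.25 on the day 5 arrays and 0.25 and -1.19 on the day 8 arrays. Its readings were 253661 and 167304 at day 5 and 283238 and 178403 at day 8 in the Cux2 siRNA pools, against 263437 and 398409 at day 5 and 237920.0 and 406065 at day 8 in the non-specific siRNA pools. The groups overlapped across arrays, since the replicate 1 arrays lay near 0 and the replicate 2 arrays were far below it. The mean was -0.56 (SE 0.31, adjusted p = 0.237). Apoc3, an inhibitor of triglyceride clearance, had ratios of 0.41 and -0.58 on the day 5 arrays and 0.29 and -0.59 on the day 8 arrays, positive on the replicate 1 arrays and negative on the replicate 2 arrays, and a mean of -0.12 (SE 0.22, adjusted p = 0.739).

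Nr1h3 and Apoc3 were the 2 genes whose sign followed the replicate number on both days, 5.71% of the 35 against 9.91% of all genes tested. The replicate number stands for the dye orientation and for different pools, and these cannot be told apart. The 95% interval of the mean over both days was -1.36 to 0.24 for Apoe and -0.69 to 0.45 for Apoc3, so changes of the size seen for Mttp lay inside both.

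**Figure D4:**
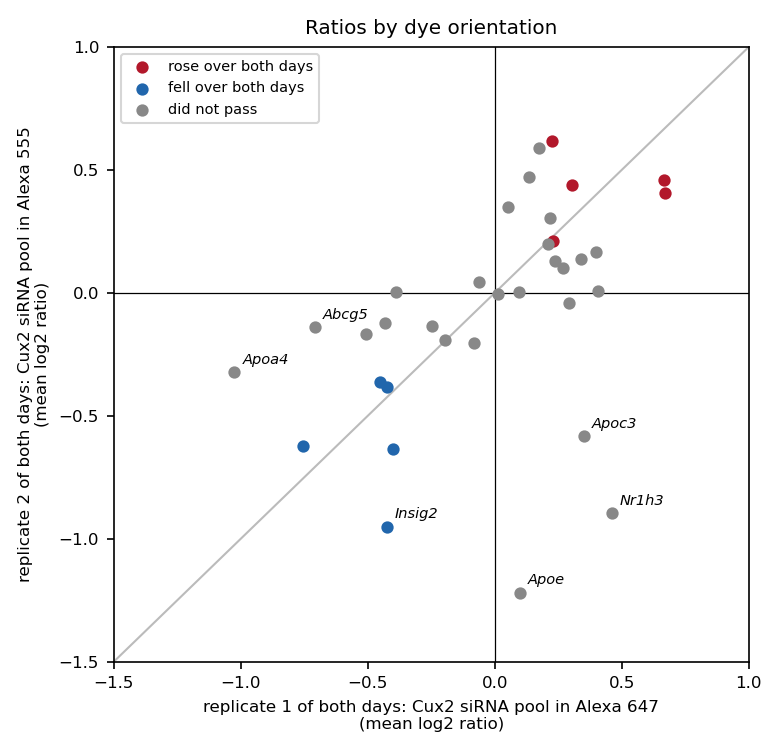
Mean log2 ratio of the 35 tested genes on the replicate 2 arrays (vertical axis, Cux2 siRNA pool in Alexa 555) against the replicate 1 arrays (horizontal axis, Cux2 siRNA pool in Alexa 647), with equal values on the grey diagonal. The genes that rose or fell lie on the same side of 0 in both orientations, and Nr1h3, Apoc3 and Apoe lie in the lower right, positive in replicate 1 and negative in replicate 2.

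No gene of the 35 differed between the days after adjustment, and 0% of all genes did (0 of 25092 by limma). At an unadjusted p under 0.05 the difference of day 8 minus day 5 was met by 1 of the 35, Apob, and by 620 of all genes. For Apob the difference was 0.69 (SE 0.18, unadjusted p = 0.0126, adjusted p = 1.000), with the day 8 ratios on both arrays nearer to 0 than the day 5 ratios. The differences of the other 34 genes ran from -0.52 for Nr1h3 to 0.56 for Apoa4. The count was 0 under every alternative processing tried.

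Beyond the 36, a list of 60 further sterol and lipoprotein genes had 56 tested, of which 7 rose and 21 fell over both days. That was 50% called, against 31.1% of all genes, and the median was -0.13. With the scanner's processed signals 16 of them passed, 4 by rising and 12 by falling, which was 28.6% against 26.5% of all genes. Under median centring 1 did, 1.79% against 1.07% of all genes. Among 16 genes of uptake, transport and lysosomal handling 9 fell and none rose, with a median of -0.35. That was 56.2% by falling, against 16.3% of all genes. Sort1, the sorting receptor sortilin, averaged -1.03 (SE 0.089, adjusted p = 0.00296) with log2 ratios of -1.30 to -0.71. Vldlr, a receptor for triglyceride-rich particles, averaged -0.96 (SE 0.17, adjusted p = 0.0174). Soat1, the acyltransferase best known from macrophages, averaged -0.77 (SE 0.087, adjusted p = 0.00533), and Nceh1, a cholesteryl ester hydrolase, averaged -0.70 (SE 0.065, adjusted p = 0.00340). This list's count was 6 to 8 with 1 array left out. The macrophage markers above fell on the same arrays, and their part in these values was not tested.

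Of 8 further genes of LXR and efflux 5 fell and 1 rose, 75% called against 31.1% of all genes. Fewer genes of this list passed when day 5 replicate 2 or day 8 replicate 2 was left out. With the scanner's processed signals 2 of the 8 passed, where 26.5% of all genes did. Abca2, a lysosomal transporter, averaged -0.59 (SE 0.052, adjusted p = 0.00302), and Nr1h2, which encodes LXR beta, averaged -0.44 (SE 0.092, adjusted p = 0.0245). Abcg1, an efflux transporter to HDL, averaged -0.44 (SE 0.071, adjusted p = 0.0127), and the nuclear receptor coactivator Ncoa1 averaged -0.40 (SE 0.063, adjusted p = 0.0118). Srebf1, which encodes SREBP1 and is driven by LXR and insulin, was the riser at 0.41 (SE 0.066, adjusted p = 0.0132), positive on all 4 arrays. In the 12 further genes of sterol synthesis and SREBP processing 3 rose and 1 fell, 33.3% called against 31.1% of all genes. Erlin1 averaged 0.42 (SE 0.074, adjusted p = 0.0159), Acat1 0.34 (SE 0.073, adjusted p = 0.0264), Lbr 0.34 (SE 0.080, adjusted p = 0.0346) and Arv1 -0.51 (SE 0.10, adjusted p = 0.0219). In this list 0 genes passed when day 5 replicate 2 was left out, 2 when day 8 replicate 1 was, 1 when day 8 replicate 2 was, and 1 with the scanner's processed signals. Erlin1 takes part in restraining SREBP activation, and Lbr is a sterol reductase of the nuclear envelope. In the 20 further apolipoproteins and lipoprotein enzymes 3 rose and 6 fell, with a median of 0.0023. This was 45% called, against 31.1% of all genes. Without day 5 replicate 1 the 9 calls became 3, without day 5 replicate 2 they became 2, and without day 8 replicate 2 they became 5. Pltp, the phospholipid transfer protein, averaged 0.53 (SE 0.046, adjusted p = 0.00296), within 0.47 to 0.59 on the arrays. Hepatic lipase, Lipc, averaged 0.30 (SE 0.054, adjusted p = 0.0165), and Sar1b, a small GTPase of lipoprotein export, averaged 0.27 (SE 0.054, adjusted p = 0.0211). Apof, a lipid transfer inhibitor protein, averaged -1.34 (SE 0.16, adjusted p = 0.00627), and lipoprotein lipase, Lpl, averaged -1.23 (SE 0.26, adjusted p = 0.0254). Apon averaged -0.87 (SE 0.15, adjusted p = 0.0142) and Apom, an HDL apolipoprotein, averaged -0.36 (SE 0.054, adjusted p = 0.0104).

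**Figure D5:**
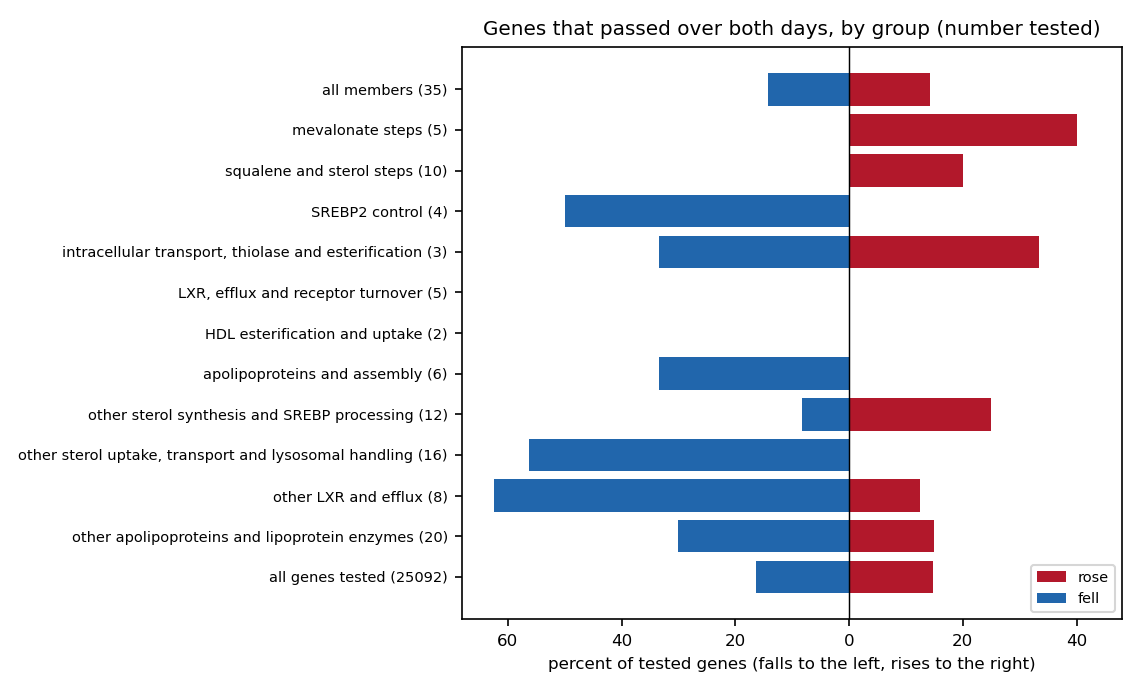
Percent of tested genes that rose (right of 0, red) or fell (left of 0, blue) over both days in each role group, in the further lists and among all 25092 genes, with the number tested in brackets. The mevalonate steps have rises only at 40% of 5 genes, the further genes of uptake and lysosomal handling have falls only at 56.2% of 16, and the 35 genes together have equal shares in both directions.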

How the data were processed

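Liver RNA pools were compared on 4 arrays read on 1 slide. Per the file headers, Feature Extraction 10.7.1.1 wrote the deposited intensity values, of which the median spot and background signals were used. The authors' deposited table of values holds log10 ratios that equal the scanner's own within 1e-05, once the sign of both Alexa 555 arrays is turned, so the authors' direction is Cux2 siRNA over non-specific siRNA. Deposited p-values were not used. Signals were corrected by normexp (offset 50) and normalized by loess within each array, leaving out 1639 control spots and outlier spots, with limma 3.58.1 in R 4.3.3. For the printed spot signals limma's Aquantile method was then applied between arrays. Spots of a probe were averaged. Of 41174 probes, 31760 were well above background in at least 2 of 8 channel readings and measured on all 4 arrays, and the brightest probe stood for a gene. RefSeq accessions named 23374 probes (56.8%, GRCm38.p6). The other 17800 probes stay unnamed. Log2 ratios were computed here and fitted with lmFit and eBayes, as day 5, day 8, their mean and their difference. Named genes are all 36, Cux2, and at most 4 rises and 4 falls of each further list. Members, lists and tests were chosen with earlier results of these data known.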

Additional observations from a re-analysis of the deposited data

How the results depend on the processing

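All 10 genes that passed over both days kept their direction under the 12 alternatives. Pmvk, Lss, Scap, Soat2, Apob and Mttp passed in 11 of the 12, all but median centring, and Mvd, Sqle, Insig2 and Stard4 passed in 5 each. Median centring in place of loess left 0 of the 35 genes at day 5, at day 8 and over both days. It left 5 genes of the array at day 5 (1 rose, 4 fell), 3 at day 8 (0 rose, 3 fell), 269 over both days (87 rose, 182 fell) and 1 further sterol and lipoprotein gene, and the cause was not tested. The scanner's processed signals gave 1 at day 5, 0 at day 8 and 6 over both days (2 rose, 4 fell) among the 35, 16 further genes, and 2015 and 1476 genes of the array at day 5 and day 8. Over both days they called 6661 genes, 3705 of them rises. The authors' log10 values gave 1, 0 and 6 of the 35, 16 further genes, and 2014 and 1467 genes of the array. No background subtraction gave 3 of the 35 at day 5, 0 at day 8, and 2104 genes of the array at day 8. Both filters on dim probes and the mean of all probes kept the counts within 1.5 times, and testing only probes well above background in all 8 readings added Apoa4, Ebp, Hsd17b7, Mylip and Scarb1 to the 10.

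The labels give the replicate numbers no shared mice, litter or day, only the dye orientation, and whether a number also marks a shared control pool is not given. The deviations of replicate 1 from the day's mean correlated at 0.50 between the days, over genes. With a replicate block, 15 of the 35 passed at day 5, 12 at day 8 and 24 over both days (12 rose, 12 fell), 68.6% against 44.8% of all genes (11246). Genes of the array numbered 8226 at day 5 and 7449 at day 8. The 14 added over both days were Abca1, Abcg5, Acat2, Apoa4, Apoe, Dhcr7, Ebp, Fdft1, Hmgcs1, Hsd17b7, Mvk, Mylip, Nsdhl and Scarb1, with the lowest adjusted p at 0.00152 for Apoe. Of the further genes 36 passed.

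Leaving out 1 array at a time gave 0 to 5 of the 35 at day 5, 0 to 1 at day 8 and 7 to 10 over both days. The genes of the array numbered 239 to 3602, 137 to 2472 and 3879 to 5502, and the further genes 11 to 20. A lone array of a day is then assumed to vary like the pair of the other day. Cux2 stayed lower throughout, and median centring ended its call on both days (adjusted p = 0.129 and 0.277).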

Other observations

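Steroidogenic and fat cell genes, which also handle cholesterol or lipoprotein lipid, were read on the same arrays. Of 5 adrenal cortex and steroidogenic markers tested, of 6 listed, Hsd3b1 alone rose, with log2 ratios of 0.72 and 0.61 on the day 5 arrays and 1.17 and 2.11 on the day 8 arrays and a mean of 1.15 (SE 0.16, adjusted p = 0.00867). This 1 call was 20% of the 5 tested, against 31.1% of all genes. Hsd3b1 belongs to a family of close paralogs, and a probe may not tell them apart. The summed signal of the list was 3559 to 6978 in Cux2 siRNA pools and 1420.03 to 3310.1 in non-specific siRNA pools, most of it from Hsd3b1. The other 4 markers summed to 370 to 461 in Cux2 siRNA pools and 370 to 473 in non-specific siRNA pools, which overlap. Cyp11a1, Cyp21a1 and Nr5a1, the defining markers of the adrenal cortex, were not well above background in all 8 readings. Of 5 adipocyte markers tested, of 6 listed, Fabp4 and Adipoq fell, with means of -0.54 (SE 0.077, adjusted p = 0.00932) and -0.45 (SE 0.058, adjusted p = 0.00693). The 2 falls were 40% of the 5 tested, against 16.3% of all genes. The summed signal of the list was 6160 to 6503 in Cux2 siRNA pools and 8194 to 10082 in non-specific siRNA pools. Most of it came from Fabp4. The other 4 summed to 471 to 500 in Cux2 siRNA pools and 548 to 608 in non-specific siRNA pools. Lep was below background, and Plin1 was not well above background in all 8 readings.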
